A study of Mus musculus with 30 samples.

Results

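The genes described here encode proteins that neutrophils store in their granules, together with the nuclear enzyme Padi4: Ngp, Camp, Ltf, Mmp8, Cd177, Mpo, Elane, Prtn3, Ctsg and Padi4. They were chosen by gene symbol, every probe set that carries one of these symbols being taken, and 10 of the 22121 gene symbols on the array were members. Each was represented by 1 of the 45037 probe sets, and all 10 passed the filter on low values. The lowest of the members by mean lay at the 36.8th percentile of all probe sets.

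The values come from shaved back skin of female mice of strain 129–C57BL/6, 8 to 12 weeks old, which were either wild type (WT) or lacked D6, an atypical receptor that binds inflammatory CC chemokines and removes them without signalling. The skin received 3 daily applications of 50 μM TPA, a phorbol ester that irritates skin, and was taken on day 1, 2, 4 or 6 after the last. Day 0 stands for control mice of each genotype, which the sample titles call untreated and the descriptions and methods call acetone-treated. There were 3 mice for every genotype at every time, which gives 10 groups, and each mouse had its own array, and the loss of D6 is in the germ line, so that all cells of the animal lack it. The study asked how the response to TPA differs between the genotypes over time, and whole skin was measured, in which more neutrophils and more RNA per neutrophil cannot be told apart.

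Neutrophils make their granules in the bone marrow in a fixed order, and the transcripts for each kind of granule are made during the stage at which that granule is filled. Azurophil granules come first and hold myeloperoxidase (Mpo) and the serine proteases neutrophil elastase (Elane), proteinase 3 (Prtn3) and cathepsin G (Ctsg). Specific granules follow at the myelocyte stage and hold lactoferrin (Ltf), the cathelicidin precursor (Camp), neutrophil granule protein (Ngp) and neutrophil collagenase (Mmp8), whereas Cd177 is a surface glycoprotein that is also stored in granules. Mature neutrophils that leave the blood for inflamed skin keep the stored proteins and carry much less of the early transcripts. Padi4 converts arginine to citrulline in histones and takes part in the release of neutrophil extracellular traps.

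The stretches directly upstream of the gene starts are shown for Ngp, Camp, Ltf and Mmp8 of the specific granules, which were called between the genotypes on day 2, and for the neighbouring protease genes Prtn3 and Elane, of which Prtn3 was called between the genotypes in control skin. Each is 120 bases, ends at the last base before the start and is written from 5′ to 3′ on the strand of the gene (RefSeq, build GRCm38.p6). Capitals mark matches to TTNNGCAA, a core of sites that C/EBP factors can bind, or AGGAAGT, a core that ETS factors such as PU.1 can bind, on either strand. The motifs were chosen after the sequences had been seen, and their matches do not overlap.
Ngp (chr9:110419688-110419807, plus strand): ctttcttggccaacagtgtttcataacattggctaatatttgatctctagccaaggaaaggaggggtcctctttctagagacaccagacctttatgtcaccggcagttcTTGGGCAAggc
Camp (chr9:109849457-109849576, minus strand): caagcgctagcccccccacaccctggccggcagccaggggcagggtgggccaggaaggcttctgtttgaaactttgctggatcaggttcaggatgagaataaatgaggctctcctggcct
Ltf (chr9:111019172-111019291, plus strand): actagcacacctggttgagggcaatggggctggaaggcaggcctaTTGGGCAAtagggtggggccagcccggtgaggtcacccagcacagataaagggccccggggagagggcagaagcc
Mmp8 (chr9:7558309-7558428, plus strand): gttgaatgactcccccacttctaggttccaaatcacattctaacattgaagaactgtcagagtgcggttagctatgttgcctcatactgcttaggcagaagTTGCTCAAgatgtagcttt
Elane (chr10:79886192-79886311, plus strand): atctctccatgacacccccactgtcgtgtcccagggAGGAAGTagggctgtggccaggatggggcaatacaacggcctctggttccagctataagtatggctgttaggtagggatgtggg
Prtn3 (chr10:79879547-79879666, plus strand): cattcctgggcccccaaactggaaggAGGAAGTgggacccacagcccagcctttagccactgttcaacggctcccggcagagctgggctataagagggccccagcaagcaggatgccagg

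All 10 members had 1 upstream sequence each in RefSeq, and the whole 250 bases before the start were searched. TTNNGCAA was found for 3 of 10 members, Ngp (2 matches), Ltf and Mmp8, against 9.56% of all 32851 upstream sequences. The Ngp and Ltf matches in capitals have the same 8 letters, 11 to 4 bases before the start of Ngp and 75 to 68 bases before that of Ltf. AGGAAGT was found for 5 of 10 members, namely all 4 azurophil genes and Mmp8, against 7.69% of all. A match describes the letters only, and no binding was measured in these mice.

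Of 3 probe sets for the D6 gene, listed as Ccbp2, 1 separated the genotypes, with 3.30 to 3.86 on the 15 D6-deficient and 4.15 to 5.76 on the 15 WT arrays (log2 intensity, the scale of all values below). Array medians ran from 5.64 to 5.80 and the median SD within groups was 0.187. The deposited values had been quantile normalized, which brings array medians together, so the medians cannot show whether an array stood apart. The hybridization controls were averaged per array as deviations from each control's mean and cut at their widest gap, from -0.195 to 0.066. The cut put 13 arrays in the first set and 17 in the second, and it gives 2 sets whatever the values. Values within each set stand beside the results they touch. On days 0, 2 and 4 each set held 1 array of 1 genotype and 2 of the other. Skin was evident in every group from its keratinocyte, fibroblast and macrophage genes. The mean of 4 keratinocyte genes was lower on day 4 than in control skin, at 11.18 against 12.55 in WT and 10.33 against 13.14 in D6-deficient mice, with Krt1 and Krt10, keratins of the upper epidermis, called lower in both, and the part of this in the members' day 4 values was not tested. A set of 5 neutrophil receptor genes (Cxcr2, Csf3r, Trem1, Clec4d and Clec4e) averaged 5.56 and 5.78 in WT and D6-deficient control skin. Their mean serves below as a comparison that no member enters. Which cells of the skin carried these transcripts was not measured.

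Ngp showed the widest change of all members, its group means spanning 5.93. Control arrays held 5.11, 4.47 and 4.35 in WT and 4.68, 5.13 and 4.67 in D6-deficient mice, so the genotypes overlapped before TPA. In WT mice the arrays read 6.42, 5.45 and 5.16 on day 1, 4.84, 6.91 and 5.52 on day 2, 8.66, 6.80 and 9.29 on day 4 and 5.33, 6.76 and 6.09 on day 6. The WT response thus came on day 4, where Ngp rose by 3.61 over day 0 (SE 0.80, adjusted p = 9.1e-04). The WT arrays of day 1 were all above the controls, and on day 2 replicate 1 lay among them. In D6-deficient mice Ngp read 7.70, 9.70 and 7.23 on day 1 and 8.75, 11.09 and 11.87 on day 2, and 10.77, 8.56 and 8.34 on day 4 and 6.49, 8.31 and 6.04 on day 6. Ngp thus rose over its D6-deficient controls by 3.38 on day 1 (SE 0.80, adjusted p = 0.0019), by 5.75 on day 2 (adjusted p = 4.7e-06), by 4.40 on day 4 (adjusted p = 9.7e-05) and by 2.12 on day 6 (adjusted p = 0.046). The day 6 rise was lost when any 1 of the day 0 arrays, or replicate 1 or 2 of day 6, was left out, the adjusted p being 0.24 without replicate 2, the highest.

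Camp, whose product is cut to an antimicrobial peptide, moved with Ngp at a lower amplitude. Its D6-deficient arrays rose from 5.92, 5.89 and 5.33 on day 0 to 7.47, 9.47 and 6.96 on day 1 and 7.86, 9.52 and 10.76 on day 2, and then read 8.63, 6.64 and 6.96 on day 4 and 6.997, 8.00 and 6.05 on day 6. The rise over day 0 was 2.25 on day 1 (SE 0.60, adjusted p = 0.0048), 3.67 on day 2 (adjusted p = 3.5e-05) and 1.70 on day 4 (adjusted p = 0.026). WT arrays stayed between 5.25 and 6.64 through day 2 and reached 7.34, 7.29 and 7.44 on day 4, a rise of 1.72 (SE 0.60, adjusted p = 0.025), before 6.48, 6.73 and 6.53 on day 6. On day 4 the WT arrays lay inside the range of the D6-deficient ones. The WT call was lost without replicate 1 or 3 of day 0 or of day 4 (adjusted p = 0.050 to 0.087), and the D6-deficient call of day 4 without its replicate 1, the highest (adjusted p = 0.18), or without day 0 replicate 3 (adjusted p = 0.091).

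Ltf, the iron-binding protein of specific granules, was close to its floor in control skin, at 3.91, 3.81 and 3.95 in WT and 3.79, 3.99 and 3.92 in D6-deficient mice. D6-deficient arrays gave 5.74, 7.18 and 4.94 on day 1, 6.23, 8.64 and 9.87 on day 2, 7.84, 4.53 and 5.19 on day 4 and 4.56, 5.88 and 4.17 on day 6. Ltf rose by 2.05 on day 1 (SE 0.72, adjusted p = 0.029), by 4.35 on day 2 (adjusted p = 4.2e-05) and by 1.95 on day 4 (adjusted p = 0.033). WT mice showed no call for Ltf on any day, the largest difference being 1.68 on day 4 (SE 0.72, adjusted p = 0.069), where the arrays read 5.76, 4.91 and 6.04. The day 4 call was lost without D6-deficient replicate 1 (adjusted p = 0.28) or when any 1 of the day 0 arrays was left out. Without D6-deficient day 1 replicate 2 the day 1 rises of Camp and Ltf had an adjusted p of 0.059 and 0.17, whereas Ngp remained called at 0.022. The day 1 rise of Ltf was also lost without replicate 1 (adjusted p = 0.052) or when any 1 of the day 0 arrays was left out.

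**Figure D1:**
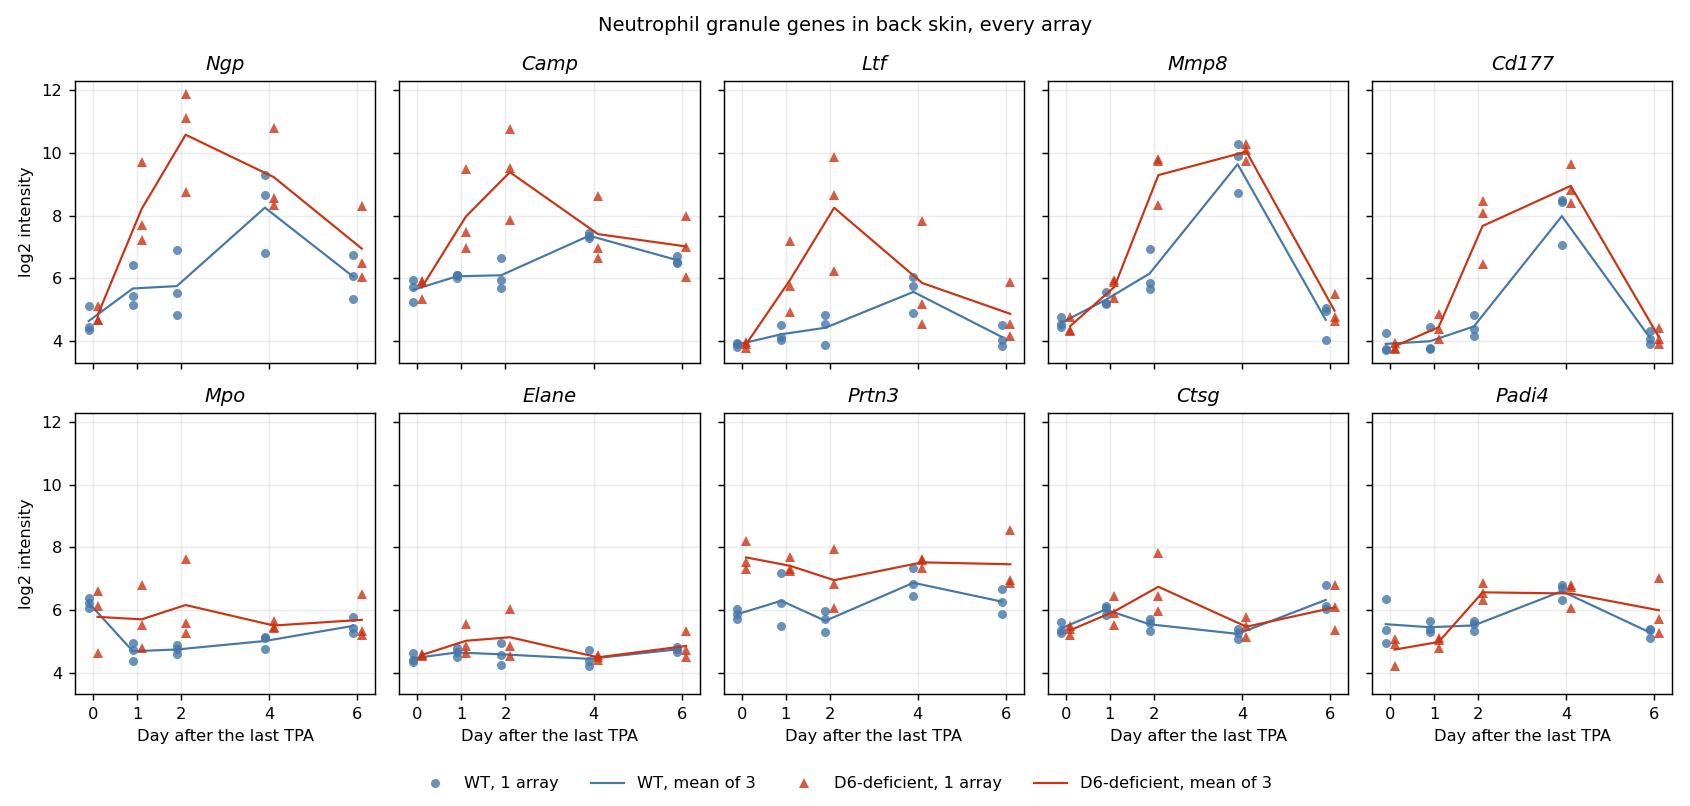
Log2 intensity (y axis) of the 10 genes on each of 30 arrays by day after the last TPA (x axis), with circles for WT and triangles for D6-deficient mice and lines through the means of 3 arrays. Ngp, Camp and Ltf have their highest D6-deficient mean on day 2 (10.57, 9.38 and 8.25), Mmp8 and Cd177 theirs on day 4 (10.03 and 8.94), and the azurophil genes and Padi4 span at most 2.02.

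Mmp8 and Cd177 were not called on day 1 and were high on day 4 in both genotypes. Mmp8, a collagenase, read 4.54, 4.77 and 4.47 in WT and 4.37, 4.32 and 4.76 in D6-deficient control skin. The D6-deficient arrays of day 1, at 5.36, 5.88 and 5.93, were all above their controls, and the difference of 1.24 (SE 0.39, adjusted p = 0.015) was under 3-fold. On day 2 it stood at 5.86, 6.94 and 5.65 in WT and at 8.33, 9.75 and 9.79 in D6-deficient mice, with no overlap. By day 4 WT arrays had reached 9.90, 8.71 and 10.29 and D6-deficient arrays 10.29, 10.09 and 9.72, and the genotypes overlapped. Over day 0, Mmp8 rose by 5.04 in WT on day 4 (SE 0.39, adjusted p = 8.9e-10), and in D6-deficient mice by 4.80 on day 2 (adjusted p = 2.4e-09) and 5.55 on day 4 (adjusted p = 1.1e-10). On day 6 no array of either genotype was above 5.50.

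Cd177, the surface glycoprotein, was similar in course. It read 4.17, 4.83 and 4.40 in WT and 6.44, 8.08 and 8.47 in D6-deficient mice on day 2, and 8.42, 7.05 and 8.48 against 9.63, 8.39 and 8.81 on day 4. The rise over day 0 was 4.07 in WT on day 4 (SE 0.40, adjusted p = 3.0e-08), and 3.83 and 5.11 in D6-deficient mice on days 2 and 4 (adjusted p = 9.1e-08 and 6.0e-10). Its controls lay between 3.73 and 4.26 over both genotypes, and its day 6 arrays between 3.92 and 4.43.

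Counted over the members, and calling a difference at an adjusted p under 0.05 and more than 3-fold, 4 of 10 rose over day 0 in WT mice on day 4 (Ngp, Camp, Mmp8 and Cd177), where 1.76% of all probe sets were called higher. None was called in WT mice on days 1, 2 and 6, where limma called 1.77%, 1.9% and 1.34% of all probe sets in either direction, and 1, 2 and 1 members had an unadjusted p under 0.05. In D6-deficient mice 3 members rose on day 1 (Ngp, Camp and Ltf; 1.06% of all probe sets called higher), 6 on day 2 (1.7%), 6 on day 4 (1.97%) and 1 on day 6 (0.888%). The 6 of days 2 and 4 were the same genes, namely Ngp, Camp, Ltf, Mmp8, Cd177 and Padi4. No member was called lower than day 0 at any time. Without D6-deficient day 0 replicate 3 the count for day 4 was 3. With no fold threshold, 1 member passed in WT mice on day 1 (Mpo, lower) and 2 on day 2 (Mpo, lower, and Mmp8, higher, at 1.56), against 24% and 26.1% of all probe sets. In D6-deficient mice 4 passed on day 1 (Ngp, Camp, Ltf and Mmp8), against 36.3%, and 2 on day 6 (Ngp and Padi4), against 31.7%.

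Between the genotypes, the members differed on day 2. Ngp was 4.82 higher in mice without D6 (SE 0.80, adjusted p = 4.9e-04), Ltf 3.82 (SE 0.72, adjusted p = 0.0017), Camp 3.28 (SE 0.60, adjusted p = 0.0012), Cd177 3.20 (SE 0.40, adjusted p = 1.3e-05) and Mmp8 3.13 (SE 0.39, adjusted p = 1.1e-05). These were 5 of 10 members, where 0.411% of all probe sets were called higher. The median over the 10 members was 2.27, and that over all probe sets -0.02. In 9 of 10 members all 3 D6-deficient arrays were above all 3 WT arrays, as in 10.4% of all probe sets. Within each of the sets formed by the hybridization controls, the difference was 5.08 and 5.66 for Ngp, 3.55 and 5.17 for Ltf, 2.75 and 4.58 for Camp, 3.09 and 3.86 for Cd177 and 3.18 and 3.49 for Mmp8. The first set held 2 D6-deficient arrays and 1 WT array, and the second D6-deficient replicate 3 alone and 2 WT arrays. Ngp, Ltf, Camp, Cd177 and Mmp8 stayed called when any array of the comparison was left out.

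When the WT change from day 0 was subtracted from the D6-deficient one, 6 members were called at day 2, against 0.555% of all probe sets called higher. They were Ngp at 4.63 (SE 1.14, adjusted p = 0.015), Ltf at 3.81 (SE 1.02, adjusted p = 0.027), Cd177 at 3.28 (SE 0.57, adjusted p = 9.9e-04), Mmp8 at 3.24 (SE 0.55, adjusted p = 8.5e-04), Camp at 3.20 (SE 0.85, adjusted p = 0.025) and Padi4 at 1.86 (SE 0.47, adjusted p = 0.019). Single arrays moved this count, to 2 without WT day 2 replicate 1 and to 3 without WT day 0 replicate 1, D6-deficient day 0 replicate 3, or D6-deficient day 2 replicate 2 or 3. Cd177 and Mmp8 were called in 12 of 12 fits that left out 1 array, Ngp in 10, Padi4 in 8, Camp in 5 and Ltf in 4.

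On day 1, Ngp was 2.53 higher (SE 0.80), Camp 1.90 (SE 0.60) and Ltf 1.73 (SE 0.72) in D6-deficient skin, and none passed (adjusted p = 0.37, 0.37 and 0.55). All 3 D6-deficient arrays of each of these genes were nevertheless above all 3 WT arrays, which held for 4 of 10 members and 7.92% of all probe sets, the fourth being Prtn3. Padi4 was the other way round, with 5.05, 5.11 and 4.81 in D6-deficient and 5.32, 5.66 and 5.40 in WT mice, as were 6.89% of all probe sets. By day 4 the differences of the 10 members ran from -0.07 for Padi4 to 0.97 for Ngp and by day 6 from -0.24 for Ctsg to 1.19 for Prtn3. No member was called between the genotypes on days 1, 4 and 6, where limma called 0.0139%, 0.0777% and 0.0167% of all probe sets, and 4, 1 and 2 members had an unadjusted p under 0.05. Relative to day 0 no member was called at days 1, 4 and 6 (0.00278%, 0.153% and 0.00278% of all probe sets), with 2, 0 and 1 at an unadjusted p under 0.05. The methods' t-test, unadjusted, called 1 member on day 1 between the genotypes and none in the other comparisons in which limma called none.

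**Figure D2:**
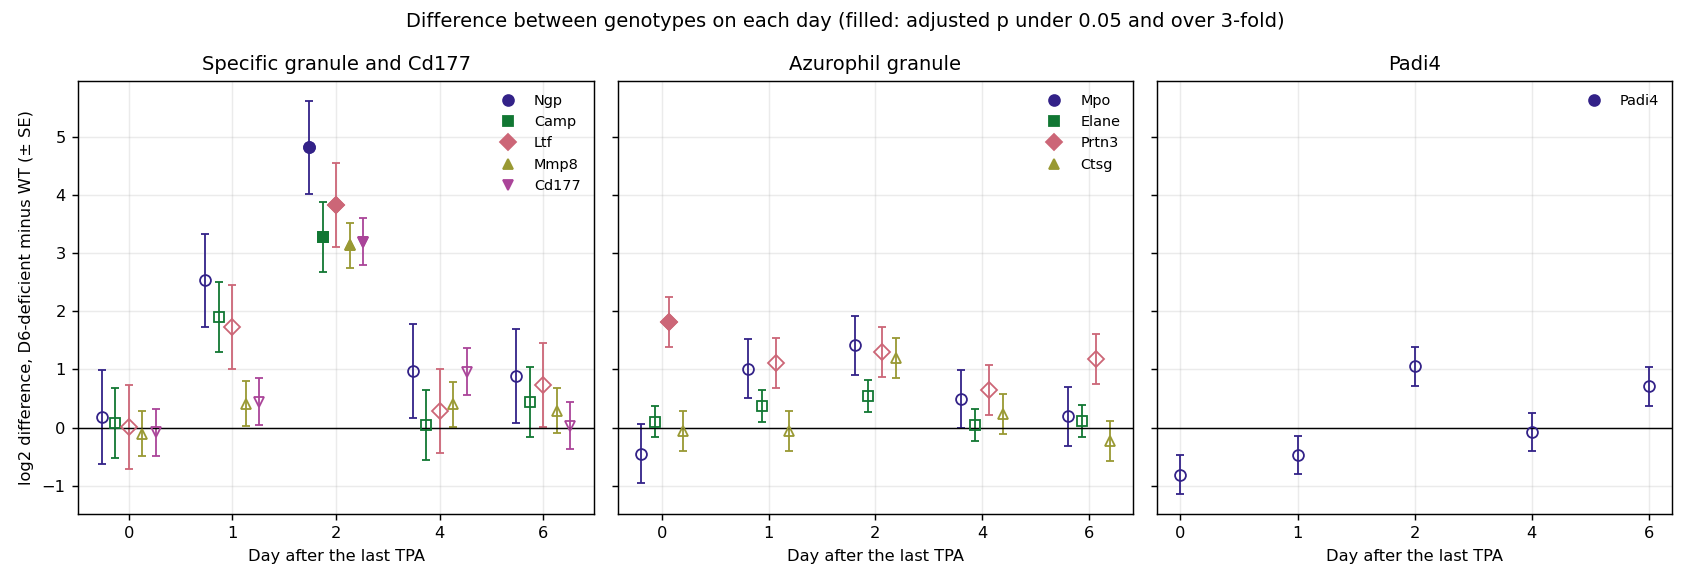
Log2 difference between D6-deficient and WT skin (y axis, estimate ± SE from the fit, n = 3 arrays per group) on each day (x axis) for the specific granule genes with Cd177, the azurophil genes and Padi4. Filled symbols passed the threshold, which 5 genes did on day 2, with differences of 3.13 to 4.82, and Prtn3 did on day 0, at 1.81.

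The D6-deficient arrays of day 2 differed among themselves in one order across the members. Replicate 1 was the lowest on 10 of 10 members and replicate 3 the highest on 9, and the mean over the 10 genes was 6.58, 7.77 and 8.67 on replicates 1, 2 and 3. The neutrophil receptor genes did not take that order on the same arrays, with means of 9.63, 9.91 and 9.37. Other proteins of neutrophil granules and membranes, a list of 20 tested genes, averaged 10.62, 10.58 and 10.63, and 3 erythroid genes 12.41, 12.80 and 11.87. Genes of neutrophil precursors, of which 5 were tested, did take it, with means of 7.24, 7.31 and 7.60. The part of any of these in the order of the members was not tested. A leading array was also found in D6-deficient mice on day 1, where replicate 2 was the highest on 9 of 10 members while the receptor genes averaged 6.26, 6.65 and 6.61, and on day 6, where replicate 2 was again the highest on 9, with receptor genes at 6.08, 6.54 and 5.92. The precursor genes were highest on the same replicate 2 on both days, at 7.04, 7.29 and 6.96 on day 1 and 6.88, 7.20 and 6.77 on day 6. On D6-deficient day 4, replicate 1 was the highest on 8 of 10 members, with precursor genes at 7.70, 7.52 and 7.51 and receptor genes at 10.41, 10.69 and 10.55. In WT mice the same array was the highest on at most 7 of 10 members, on days 1, 2 and 4. On WT days 1 and 2 that array, replicate 1 and replicate 2 in turn, was also the highest for the precursor and the receptor genes. On WT day 4 it was replicate 3, with precursor genes at 7.54, 7.31 and 7.33 and receptor genes at 10.21, 9.595 and 10.50.

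The receptor genes offer a comparison on the same arrays. On day 1 the receptor genes of the genotypes overlapped (6.26, 6.65 and 6.61 in D6-deficient and 6.55, 6.23 and 6.26 in WT skin), whereas the arrays of Ngp, Camp and Ltf did not. On day 2 the receptor genes were themselves higher in D6-deficient skin, at 9.63, 9.91 and 9.37 against 7.07, 8.38 and 6.86. Of the 5 genes, 4 were called (Clec4e at 3.33, Clec4d at 3.05, Trem1 at 2.07 and Csf3r at 1.71). Cxcr2 stood lower, at 0.84 (adjusted p = 0.0098), under 3-fold. The size of the granule gene differences over and above those of the receptor genes was not tested.

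**Figure D3:**
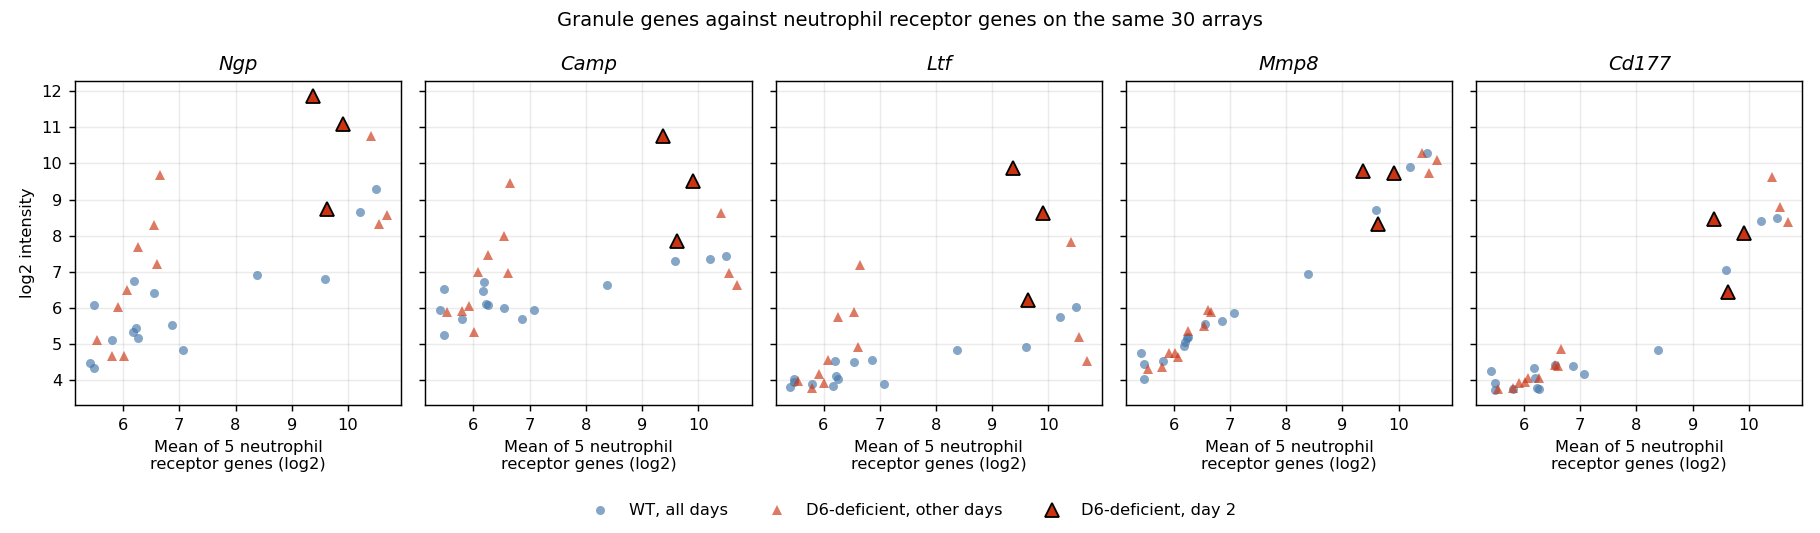
Log2 intensity of Ngp, Camp, Ltf, Mmp8 and Cd177 (y axis) against the mean log2 intensity of 5 neutrophil receptor genes (x axis) on the same 30 arrays, with circles for WT, triangles for D6-deficient mice and outlined triangles for D6-deficient day 2. At receptor means of 9.37 to 9.91 the outlined arrays run from 8.75 to 11.87 for Ngp and from 6.23 to 9.87 for Ltf, and from 8.33 to 9.79 for Mmp8.

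Day 4 was also compared with day 2, after the values were seen. In D6-deficient mice 2 members fell, Ltf by 2.39 (SE 0.72, adjusted p = 0.023) and Camp by 1.97 (SE 0.60, adjusted p = 0.025), where 0.777% of all probe sets were called lower. Ngp stood at -1.35 (SE 0.80, adjusted p = 0.29) and Mmp8 at 0.75 (SE 0.39, adjusted p = 0.22), and Cd177 at 1.28 (SE 0.40, adjusted p = 0.030), which is under 3-fold. With no fold threshold 4 members passed, the fourth being Ctsg, against 16.3% of all probe sets. The receptor genes over the same interval averaged 9.64 on day 2 and 10.55 on day 4, and Cxcr2, a chemokine receptor of mature neutrophils, rose by 2.22 (SE 0.19, adjusted p = 2.1e-08). The keratinocyte genes had a median of -3.34 over this interval, with Krt1 and Krt10 called lower. The calls for Ltf and Camp were both lost without D6-deficient replicate 2 or 3 of day 2 or of day 4 (adjusted p = 0.080 to 0.19).

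In WT mice 3 members rose from day 2 to day 4, Cd177 by 3.51 (SE 0.40, adjusted p = 1.4e-06), Mmp8 by 3.48 (SE 0.39, adjusted p = 1.1e-06) and Ngp by 2.50 (SE 0.80, adjusted p = 0.036), against 0.683% of all probe sets called higher. The call for Ngp was lost without replicate 1 or 3 of day 2 or of day 4 (adjusted p = 0.11 to 0.19). All 10 members changed less, or fell more, in D6-deficient than in WT mice over this interval, and the difference between the changes was called for Mmp8, at -2.74 (SE 0.55, adjusted p = 0.013), where 0.25% of all probe sets were called lower. For Camp it was -3.23 (SE 0.85, adjusted p = 0.072), for Ltf -3.54 (SE 1.02, adjusted p = 0.12), for Ngp -3.85 (SE 1.14, adjusted p = 0.13) and for Cd177 -2.24 (SE 0.57, adjusted p = 0.060). The call for Mmp8 was lost without WT day 2 replicate 1 or 3 or WT day 4 replicate 3.

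**Figure D4:**
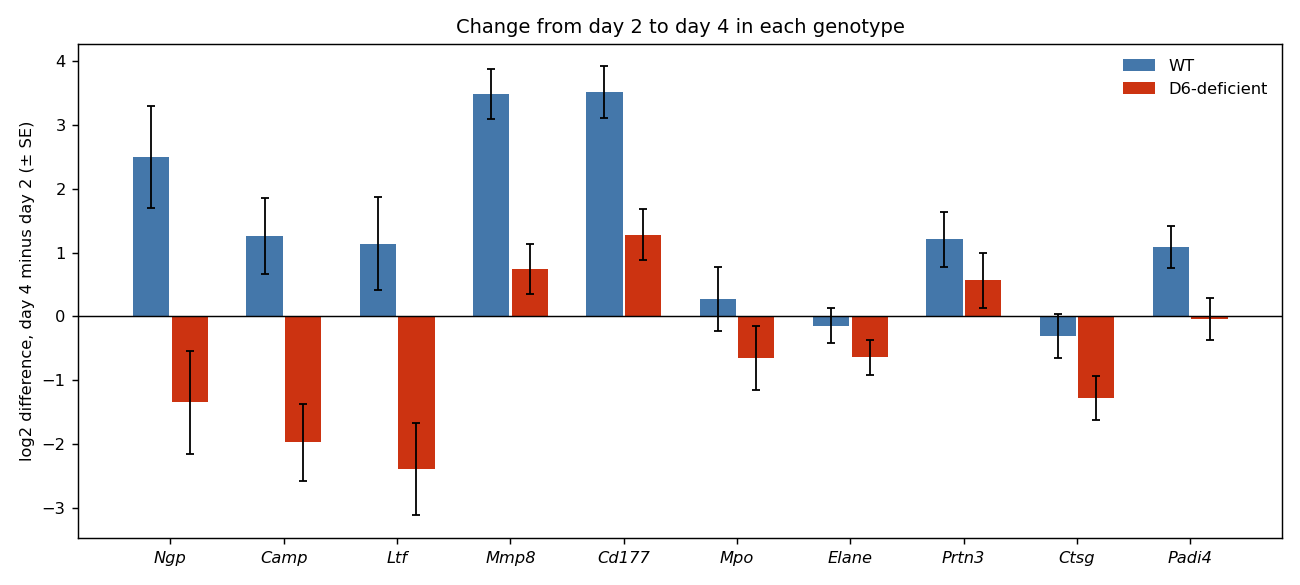
Log2 difference between day 4 and day 2 (y axis, bars for the estimate, error bars for its SE, n = 3 arrays per group) in WT and D6-deficient mice for the 10 genes. Ngp, Camp and Ltf have positive WT bars (2.50, 1.26 and 1.14) and negative D6-deficient bars (-1.35, -1.97 and -2.39), whereas Mmp8 and Cd177 are positive in both.

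Between D6-deficient day 2 and WT day 4, a comparison also added after the values were seen, 2 members were called, Ltf at 2.68 (SE 0.72, adjusted p = 0.015) and Camp at 2.02 (SE 0.60, adjusted p = 0.027) higher in D6-deficient mice, where 0.586% of all probe sets were called higher. Ngp was 2.32 higher (SE 0.80, adjusted p = 0.059), and Mmp8 and Cd177 stood at -0.35 (SE 0.39) and -0.31 (SE 0.40). No receptor gene was called in this comparison, and their median was -0.34. Cxcr2 at -1.18 (adjusted p = 1.5e-04) and Csf3r at -1.02 (adjusted p = 0.0079) were lower in D6-deficient mice, under 3-fold. Trem1 stood at -0.34, Clec4d at 0.12 and Clec4e at 0.09. The calls for Ltf and Camp were lost without WT day 4 replicate 2 or D6-deficient day 2 replicate 2 or 3. That of Camp was also lost without WT day 4 replicate 1 or 3. Without D6-deficient day 2 replicate 1, 4 members were called.

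The azurophil genes changed little in comparison. Elane, the elastase, lay between 4.24 and 6.03 on all 30 arrays, and its group means spanned 0.69, the narrowest of the members. Its values were 4.53, 4.86 and 6.03 in D6-deficient skin on day 2 and 4.27, 4.56 and 4.96 in WT skin, a difference of 0.54 (SE 0.27, adjusted p = 0.35). Only replicate 3 stood above the WT arrays there.

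Ctsg, a chymotrypsin-like protease, had its highest group in D6-deficient skin on day 2, with 5.97, 6.45 and 7.82 against 5.34, 5.60 and 5.72 in WT skin. The groups did not overlap, and the difference of 1.19 (SE 0.34, adjusted p = 0.046) was under 3-fold and 0.66 without D6-deficient replicate 3 (adjusted p = 0.34). From day 2 to day 4 Ctsg stood at -1.27 in D6-deficient mice (SE 0.34, adjusted p = 0.012), also under 3-fold. Mast cells hold cathepsin G as well, and 5 mast cell genes had a median difference of 0.33 between the genotypes on day 2, with none called.

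Mpo, which makes hypochlorous acid, was the member whose highest WT mean was in control skin. WT arrays read 6.07, 6.40 and 6.24 on day 0, 4.95, 4.74 and 4.40 on day 1 and 4.89, 4.60 and 4.76 on day 2, with no overlap with day 0. The differences of -1.54 and -1.48 (SE 0.50, adjusted p = 0.027 and 0.030) were just under 3-fold. D6-deficient arrays were more scattered, at 6.60, 6.13 and 4.64 on day 0 and 5.28, 5.58 and 7.64 on day 2. The genotypes differed by 1.41 on day 2 (SE 0.50, adjusted p = 0.13), with 0.54 and 2.96 within the hybridization control sets, the latter holding replicate 3.

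Prtn3 was the only member called between the genotypes in control skin. Its arrays read 8.19, 7.53 and 7.32 in D6-deficient and 5.88, 6.03 and 5.71 in WT mice, a difference of 1.81 (SE 0.43, adjusted p = 0.032), where 0.0527% of all probe sets were called higher. The neighbouring Elane gene, with no protein-coding gene between, differed by 0.10 (SE 0.27, adjusted p = 0.92). The call for Prtn3 was lost when any of the 6 arrays was left out (adjusted p = 0.056 to 0.17), and the difference within the hybridization control sets was 1.72 and 2.24. After TPA, Prtn3 read 7.33, 7.68 and 7.23 in D6-deficient and 5.49, 6.23 and 7.19 in WT mice on day 1, 6.07, 6.85 and 7.95 against 5.32, 5.97 and 5.71 on day 2, 7.63, 7.35 and 7.59 against 6.46, 7.33 and 6.82 on day 4, and 8.56, 6.98 and 6.85 against 6.26, 5.89 and 6.68 on day 6. Thus all 3 D6-deficient arrays were above all 3 WT arrays on each of the 5 days, which held for 1 of 10 members and for 0.0444% of all probe sets. On days 1 and 4 the groups were almost in contact. Over all days the difference was 1.21 (SE 0.19, adjusted p = 2.5e-04), under 3-fold, and TPA changed Prtn3 past the threshold in neither genotype.

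Averaged over all days, a comparison added after the values were seen, 1 member was called between the genotypes, Ngp at 1.88 (SE 0.36, adjusted p = 0.0018), where 0.0361% of all probe sets were called higher. With no fold threshold 6 were, the others being Ltf at 1.31, Prtn3 at 1.21, Camp at 1.15, Cd177 at 0.91 and Mmp8 at 0.83, where 5.52% of all probe sets passed. Every member had a positive difference.

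Padi4 rose in D6-deficient skin by 1.82 on day 2 (SE 0.33, adjusted p = 1.2e-04) and by 1.79 on day 4 (adjusted p = 1.2e-04). Without D6-deficient day 0 replicate 3 both rises were under 3-fold. Its D6-deficient arrays read 4.94, 5.07 and 4.23 on day 0, 5.05, 5.11 and 4.81 on day 1, 6.31, 6.86 and 6.54 on day 2, 6.06, 6.79 and 6.74 on day 4 and 5.27, 7.01 and 5.71 on day 6. The WT arrays read 6.34, 4.96 and 5.36 on day 0, with replicate 1 apart from the other two, 5.32, 5.66 and 5.40 on day 1, 5.33, 5.65 and 5.57 on day 2 and 6.79, 6.31 and 6.71 on day 4. The WT difference on day 4 was 1.05 (SE 0.33, adjusted p = 0.014), under 3-fold. Between the genotypes Padi4 stood at -0.81 on day 0 (adjusted p = 0.25) and 1.05 on day 2 (SE 0.33, adjusted p = 0.076), so part of its difference relative to day 0 came from the controls. Of the other peptidylarginine deiminases, Padi1, Padi2, Padi3 and Padi6, none was called on day 2 in either genotype or between them. Padi2 went the other way under 3-fold, at -1.45 over day 0 in D6-deficient mice (adjusted p = 2.0e-07) and -0.50 in WT mice (adjusted p = 0.023). The difference between these changes was -0.95 (adjusted p = 0.013).

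In the order of the groups, D6-deficient day 2 was the highest for Ngp, Camp, Ltf, Elane and Ctsg, D6-deficient day 4 for Mmp8 and Cd177, D6-deficient day 0 for Prtn3, and a WT group for Mpo (day 0) and Padi4 (day 4). Most neighbours in these orders overlapped. The gaps without overlap were between D6-deficient day 2 and WT day 2 for Mmp8 (9.29 and 6.15) and for Cd177 (7.67 and 4.47), which set the 3 highest groups apart from the rest, between WT day 1 and D6-deficient day 0 for Ngp and Camp, and between WT day 6 and WT day 4 for Mpo.

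Among other proteins of neutrophil granules, phagocyte oxidase and membrane, 20 of 25 listed symbols were on the array and tested. Between the genotypes on day 2, 4 of the 20 were higher and none lower, namely Fpr2 at 3.24 and Fpr1 at 3.16, the formyl peptide receptors, Olfm4, a specific granule protein, at 3.17 and Mmp9, the gelatinase, at 1.97, and the median was 0.75. Over day 0, 12 rose in D6-deficient mice on day 2, 5 in WT mice on day 2, 12 in WT mice on day 4 and 14 in D6-deficient mice on day 4. Lcn2, a siderophore-binding protein of specific granules, rose on day 2 by 3.71 in D6-deficient and by 3.75 in WT mice, and epidermal cells also make it, as they do S100a8 and S100a9. S100a8 was 2.41 higher in D6-deficient control skin (adjusted p = 0.035), where its WT arrays ran from 7.74 to 11.15. In D6-deficient mice from day 2 to day 4, Pglyrp1, a peptidoglycan-binding protein, rose by 1.88, and Cybb, the catalytic subunit of the phagocyte oxidase, fell by 1.80.

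Of 8 genes for granule handling, which include the protease-activating cathepsin C (Ctsc), the storage proteoglycan serglycin (Srgn) and protease inhibitors, 3 rose in D6-deficient mice on day 2 (Slpi at 4.08, Timp1 at 2.71 and Srgn at 1.74) and 4 in each genotype on day 4. None was called between the genotypes on day 2, where their median was 0.28. Of 5 tested genes of neutrophil precursors, Hdc, the histidine decarboxylase, rose in D6-deficient mice on day 2 by 2.28, and Hdc and Ms4a3 rose in WT mice on day 4 by 3.29 and 1.91. In D6-deficient mice on day 4 Hdc rose by 3.51, and Ms4a3 stood at 1.199 (adjusted p = 0.0023), under 3-fold. The 5 genes did not move together. Over day 0 their median in D6-deficient mice was 0.13 on day 2 and 0.15 on day 4, with lowest values of -0.83 and -1.29. In WT mice on day 4 the median was -0.26 and the lowest value -1.17. None of the 5 was called between the genotypes on day 2, with values from -0.26 to 1.41. The tested markers of macrophages (6), eosinophils (3), mast cells (5), T cells (3), erythroid cells (3), keratinocytes (4), fibroblasts (3), endothelium (2), muscle (2) and adipocytes (1) gave no call between the genotypes on that day either. Relative to day 0, Cd68, a lysosomal protein of macrophages, was called at day 2 at 1.65 (SE 0.29, adjusted p = 0.0011), and the 6 macrophage genes had a median of 0.60, all above 0, whose part in the members' differences was not tested. Between the genotypes Cd68 stood at -0.83 in control skin (adjusted p = 0.038) and at 0.82 on day 2 (adjusted p = 0.017), both under 3-fold. The medians of the 6 macrophage genes were -0.47 and 0.19 there. Part of their differences relative to day 0 thus came from the controls. Between the genotypes on day 2, the medians of these markers of other cell types ran from -0.66 for eosinophil to 0.59 for endothelial genes. Erythroid genes, which mark blood, stood at 0.52 there.

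The genes whose 10 group means were most like the mean standardized profile of the members were sought among 1406 probe sets with a span over 2 log2 units, with the 9 members that spanned over 1 log2 unit making the profile. They were Hsh2d (Pearson r = 0.96), Rtp4 (0.95), Lgals3bp (0.92), Cfi (0.92) and Isg20 (0.91), and the points share arrays with those of the members. Among the members themselves, r over the 30 arrays ran from -0.01 (Mpo and Mmp8) to 0.98 (Cd177 and Mmp8). The profile is thus an average of unlike courses. All 5 had their highest mean in D6-deficient mice on day 2. Rtp4 averaged 9.42 ± 0.06 in D6-deficient control skin and 11.92 ± 0.22 on day 2, and 9.35 ± 0.17 in WT skin on day 2 (SD, n = 3). Its SD on that D6-deficient day was thus small beside the 1.63 of Ngp.

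Ngp, Camp, Ltf and Mmp8 lie on chromosome 9, as does the D6 gene itself (GRCm38.p6). Between it and them were 105, 114, 84 and 1135 other protein-coding genes in that order. In control skin Ngp, Camp, Ltf and Mmp8 overlapped between the genotypes, with differences of 0.18, 0.08, 0.01 and -0.11. Cd177, also called between the genotypes on day 2, is on chromosome 7. The part of chromosome position in the differences of the members was not tested.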

How the data were processed

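Skin RNA was hybridized to Affymetrix Mouse430_2 arrays. Per the labels and methods, the authors applied RMA (background correction, quantile normalization, summarization) and deposited intensities on a linear scale. The log2 of the deposited intensity values was taken here without further scaling. After leaving out 64 controls and the 20% of probe sets with the lowest mean, 36029 of 45037 were tested. limma fitted 1 mean per group to all 30 arrays, and p-values were adjusted by Benjamini-Hochberg within each contrast. A call needed an adjusted p under 0.05 and over 3-fold. Alternatives were the methods' t-test, other filters and scalings, covariates and leaving out each array. The number of arrays limits the precision, and an exact permutation test of 3 against 3 cannot give a p under 0.1.

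Members and lists were chosen with earlier results of these data known. Named genes were all members, list genes called in a contrast and the 5 genes most like the members. A list gene was read from its brightest tested probe set. One listed neutrophil marker is not reported here and was left out of its list's values. Replicate numbers did not pair the genotypes (correlations of -0.184 to 0.378, 3 of 15 over 0.1). The fit was tested on simulated data. The other series file lists samples and was not used. R 4.3.3, limma 3.58.1, Python 3.11.15 and matplotlib 3.10.9 were used.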

Additional observations from a re-analysis of the deposited data

Results flagged for a closer look

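In each case below, the change after TPA differed between D6-deficient and WT mice by a test of the difference itself. From day 0 to day 2, D6-deficient minus WT, the difference of the log2 changes was 4.63 for Ngp, 3.81 for Ltf, 3.28 for Cd177, 3.24 for Mmp8, 3.20 for Camp and 1.86 for Padi4. From day 2 to day 4 it was -2.74 for Mmp8, a contrast added after the values were seen. Leaving out each of the 12 arrays of a contrast in turn, the day 2 call held in 4 fits for Ltf, 5 for Camp, 8 for Padi4, 10 for Ngp and 12 for Cd177 and Mmp8, and that of Mmp8 from day 2 to day 4 in 9.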

How the results depend on the processing

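The sign under the alternatives was followed for the member differences that were called and for all members between the genotypes on day 2. None of these changed sign. The other differences were not followed by gene. Within the hybridization control sets some uncalled differences had opposite signs, as for Camp between the genotypes on day 4, at -0.49 and 1.24. For the counts of members called, every alternative not named here stayed within 1.5 times the main count. After Benjamini-Hochberg adjustment, the methods' t-test called 0 members on day 0 and day 2 between the genotypes, 0 at day 2 relative to day 0, 1 in D6-deficient mice on day 1 and 0 on day 6, and 0 in the contrasts of D6-deficient day 2 with WT day 4 and of day 4 with day 2 in either genotype. Unadjusted, it called 1 on day 1 between the genotypes, 0 for D6-deficient day 2 against WT day 4 and 0 for D6-deficient day 4 against day 2. With the arrays of a contrast alone, 0 were called for D6-deficient day 2 against WT day 4, D6-deficient day 4 against day 2 and the difference of the changes from day 2 to 4. With the hybridization control sets as a covariate the last was 2 and the D6-deficient day 6 count 0, which was also 0 with no filter and with the replicate number as a block. The replicate block changed no other count by over 1.5 times, and the numbers do not pair the samples. With no fold threshold the counts were 6 over all days, 4 for D6-deficient day 4 against day 2, 2 for D6-deficient day 6, 1 for WT day 1 and 2 for WT day 2, the last being 1 with median centring or quantile normalization. Leaving out 1 array, the counts ran from 2 to 7 at day 2 relative to day 0, were 0 on day 0 and 5 to 7 on day 2 between the genotypes, and over day 0 were 1 to 3, 5 to 7, 3 to 6 and 0 to 2 in D6-deficient mice on days 1, 2, 4 and 6 and 0 to 1, 0 to 1 and 3 to 4 in WT mice on days 1, 2 and 4. For the added contrasts they were 0 to 4 (D6-deficient day 2 against WT day 4), 0 to 3 (D6-deficient day 4 against day 2), 2 to 3 (WT day 4 against day 2) and 0 to 5 (the difference of these changes). Signal near background, as for Ltf and Cd177 in control skin, compresses differences measured from it.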
